A study of Rattus norvegicus with 105 samples.

Results

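A set of 10 genes was described whose transcript levels in rat frontal cortex were among those that differed most between chronic clozapine and chronic haloperidol: Naa25, Nutf2, Mas1, Pias1 and Emsy, higher with clozapine, and Tsc22d2, Rab14, Zbtb41, Rbfox2 and Ggact, higher with haloperidol. They are 10 of the 14217 genes that the array names with a single symbol, and 22 of its 20826 probe sets with 1 symbol carry their names. The directions are those of each gene's brightest probe set, and other probe sets of Rab14 and Emsy had the opposite sign. The members were chosen by the size of their clozapine minus haloperidol difference on these arrays, so their values in that comparison are given as a description without a test. The higher members were the 5 largest of 31 named genes called higher with clozapine, and the next, Prcc, stood at 0.27 log2 units beside Emsy at 0.29. The lower members held places 1, 2, 3, 7 and 9 of 47. Cdh22 at -0.50, Nhsl2 at -0.45, Pgpep1 at -0.43 and Zfp451 at -0.41 lay among them and were not members, and Dnajb14 came next after Ggact at -0.39.

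The arrays came from 3 experiments on frontal cortex. In the neuroleptic experiment rats had received vehicle (9 arrays), clozapine at a low, medium or high dose (10, 9 and 8 arrays) or haloperidol at a low, medium or high dose (9 arrays each). The sources used here give no dose amounts, strain, age or duration. In the lesion experiment the ventral hippocampus had been lesioned (12 arrays) or sham operated (10 arrays), and in the TTX experiment it had been disrupted with tetrodotoxin (11 arrays) or sham treated (9 arrays). Nothing in the labels ties each array to its own animal, and the p-values therefore rest on array-to-array spread that may be technical in part. Bulk tissue was used, so fewer cells of a type and less RNA per cell cannot be told apart.

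Haloperidol is a typical antipsychotic that blocks dopamine receptors of the D2 kind strongly. Clozapine is an atypical antipsychotic with weaker dopamine blockade and wide binding to serotonin, muscarinic, histamine and adrenergic receptors. The 10 genes share no pathway. Mas1 is a G protein-coupled receptor for a shortened angiotensin peptide. Naa25 is the auxiliary subunit of an enzyme that acetylates the first residue of new proteins, Nutf2 carries the GTPase Ran back into the nucleus, Pias1 attaches the small protein SUMO to nuclear proteins, and Emsy is a chromatin regulator. Tsc22d2 belongs to the TSC22 domain family, Rab14 is a small GTPase of traffic between the Golgi and endosomes, Zbtb41 is a BTB domain zinc finger protein, Rbfox2 controls alternative splicing and Ggact breaks down gamma-glutamyl amines.

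Upstream sequence was available for 9 of the 10 members in RefSeq's GRCr8 annotation, Rbfox2 being the exception. It was searched on both strands for 5 short motifs in a window of the 250 bases before the start. No motif was shared by all 9. The GC box GGGCGG was in 5 windows (Emsy, Ggact, Pias1, Rab14 and Tsc22d2) and in 30.5% of all 33469 windows. The CCAAT box was in 2 (Naa25 and Nutf2) and in 34.0% of all, and neither the TATA box TATAAA (12.9% of all) nor the cAMP response element TGACGTCA (1.59%) was found in the 9. The ZNF143 motif was in 1.65% of all windows and, among the members, in that of Emsy alone. The windows of Emsy and Ggact are shown because these genes had the smallest errors on their sides, with the 250 bases before the start in the direction of the gene. Capitals mark the ZNF143 motif for Emsy (chr1:162364708-162364957, minus strand) and the GC box for Ggact (chr15:106399478-106399727, minus strand). These matches are descriptions of letters, not of bound sites.
Emsy: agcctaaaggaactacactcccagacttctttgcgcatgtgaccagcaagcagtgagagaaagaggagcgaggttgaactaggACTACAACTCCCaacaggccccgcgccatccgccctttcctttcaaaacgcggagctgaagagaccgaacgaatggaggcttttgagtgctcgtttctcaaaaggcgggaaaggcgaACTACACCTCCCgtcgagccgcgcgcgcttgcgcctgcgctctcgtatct
Ggact: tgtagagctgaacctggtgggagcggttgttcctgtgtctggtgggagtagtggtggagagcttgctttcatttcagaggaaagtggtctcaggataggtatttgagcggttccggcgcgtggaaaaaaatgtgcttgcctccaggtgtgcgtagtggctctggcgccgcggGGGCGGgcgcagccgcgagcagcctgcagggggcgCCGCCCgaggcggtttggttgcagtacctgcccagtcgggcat

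Arrays that stood apart were noted first. The mean correlation with other arrays of the experiment was low on 4 arrays, haloperidol high 8 and haloperidol medium 8 among the neuroleptic arrays and lesion 7 and lesion sham 9. Without the first 2 of these, 67 in place of 225 probe sets passed between the drugs and 4 of the 10 members, whose differences then lay between -0.54 and 0.44. Without clozapine high 2, on which Naa25 and Pias1 were lowest and Tsc22d2 highest of their group, 663 passed, and without haloperidol high 7, 56 did.

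All values below are log2 of quantile-normalised array intensity, and a difference of 1 is a fold of 2. Each gene is given by the brightest of its probe sets. In the clozapine minus haloperidol comparison over all dose levels, 225 of 18625 probe sets tested passed at an adjusted p under 0.05 in limma, which is 1.21% (0.333% higher and 0.875% lower with clozapine). The 10 members were all among them by choice, 5 in each direction, which supports nothing. Their differences ran from -0.57 to 0.45 with standard errors between 0.055 and 0.138, beside a median absolute difference of 0.056 over all probe sets.

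Among the genes higher with clozapine, Naa25 had the largest difference. It lay between 8.95 and 10.64 with a median of 10.25 on the 27 clozapine arrays, and between 8.79 and 10.43 with a median of 9.74 on the 27 haloperidol arrays. The difference was 0.45 ± 0.11 (SE), a fold of 1.37. The ranges overlapped widely, and 24 of 27 clozapine arrays lay above the haloperidol median. Nutf2 ranged from 11.74 to 13.11 (median 12.83) with clozapine and from 11.78 to 12.99 (median 12.35) with haloperidol, a difference of 0.35 ± 0.092 (SE). Its lowest clozapine array lay just below its lowest haloperidol array, and 5 clozapine arrays exceeded every haloperidol array. Pias1 ranged from 11.17 to 12.60 (median 12.00) with clozapine and from 11.24 to 12.15 (median 11.77) with haloperidol, a difference of 0.32 ± 0.069 (SE), and 11 clozapine arrays exceeded every haloperidol array.

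Mas1, the angiotensin peptide receptor, lay between 9.73 and 11.15 (median 10.28) with clozapine and between 9.35 and 10.52 (median 10.09) with haloperidol. The difference was 0.32 ± 0.080 (SE). Emsy showed the narrowest spread of the 10: it lay between 10.91 and 11.52 (median 11.26) with clozapine and between 10.44 and 11.38 (median 10.92) with haloperidol, a difference of 0.29 ± 0.055 (SE). For Emsy 26 of 27 clozapine arrays lay above the haloperidol median, and 13 haloperidol arrays fell below every clozapine array.

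Of the genes higher with haloperidol, Tsc22d2 had the largest difference, -0.57 ± 0.13 (SE) for clozapine minus haloperidol. It lay between 9.90 and 12.30 (median 10.65) with clozapine and between 10.54 and 12.59 (median 11.36) with haloperidol. Rab14, measured by its brightest probe set, lay between 13.68 and 15.32 (median 14.15) with clozapine and between 13.87 and 15.71 (median 14.83) with haloperidol, a difference of -0.55 ± 0.14 (SE). In both genes 23 of 27 clozapine arrays lay below the haloperidol median, while 1 haloperidol array of Tsc22d2 and 5 of Rab14 exceeded every clozapine array. Zbtb41 lay between 9.50 and 11.61 (median 10.35) with clozapine and between 10.31 and 11.79 (median 10.70) with haloperidol, and the difference was -0.51 ± 0.12 (SE).

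The splicing factor Rbfox2 lay between 11.94 and 13.42 (median 12.47) with clozapine and between 12.34 and 13.50 (median 13.03) with haloperidol, a difference of -0.42 ± 0.090 (SE). Ggact lay between 11.30 and 12.57 (median 11.79) with clozapine and between 11.81 and 12.64 (median 12.21) with haloperidol, a difference of -0.41 ± 0.079 (SE). Ggact separated the drugs most completely on this side: all 27 haloperidol arrays lay above the clozapine median and 14 clozapine arrays fell below every haloperidol array.

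**Figure D1:**
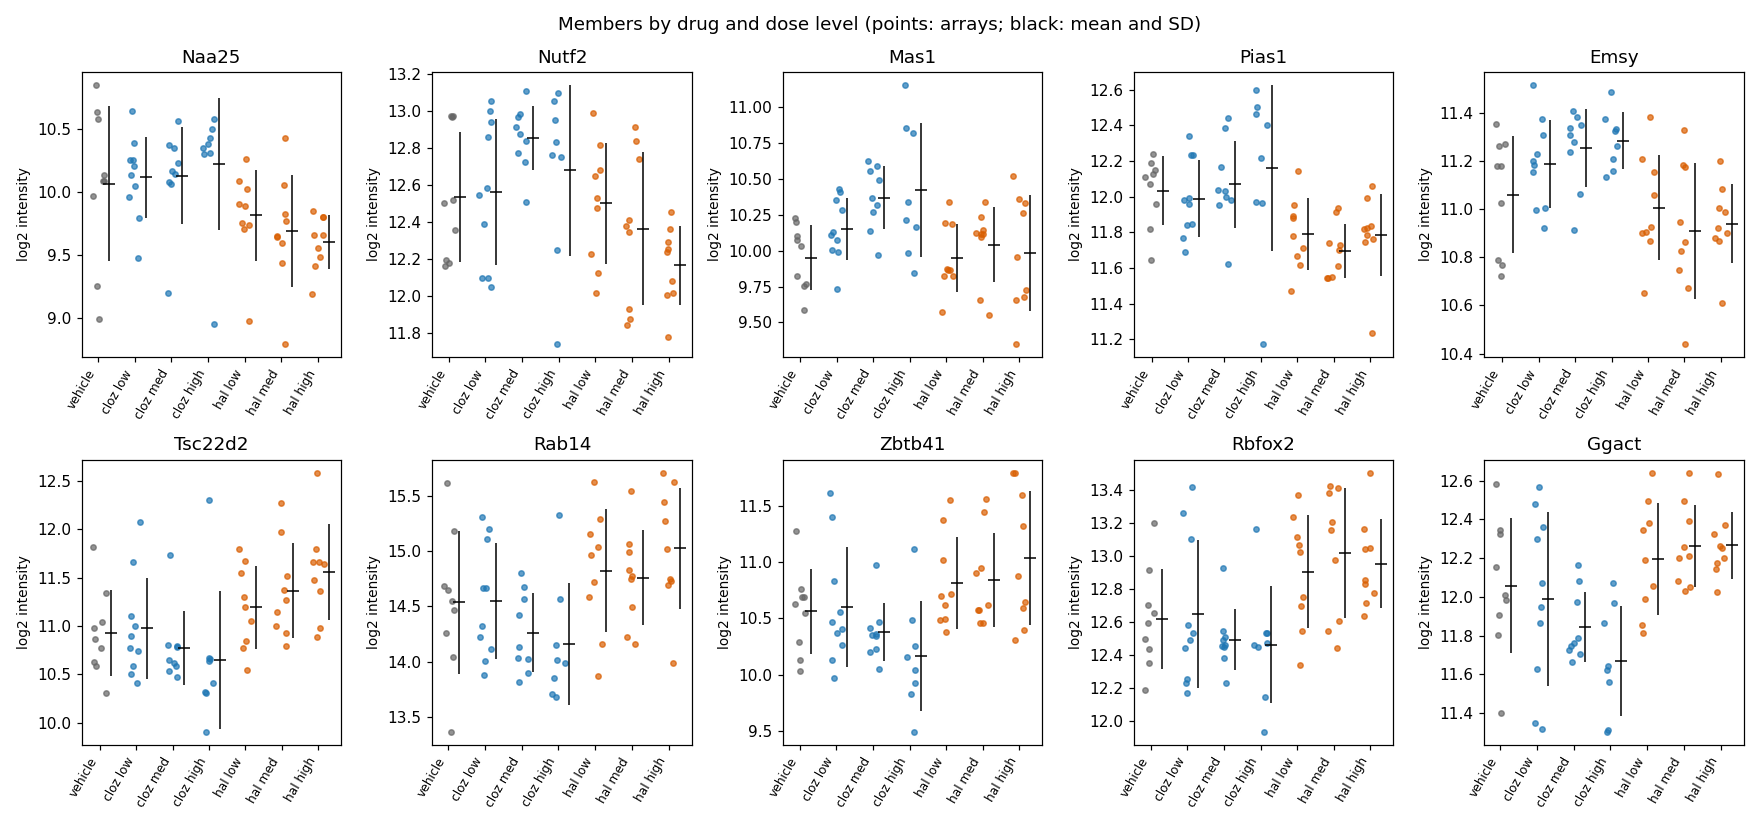
Log2 intensity of the 10 genes on each neuroleptic array, by drug and dose level; points are arrays and black marks are means with SD. The drugs' arrays overlap for every gene, and Ggact at high dose lies between 11.30 and 12.07 with clozapine and between 12.03 and 12.64 with haloperidol.

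Vehicle was the common reference for both drugs, and the 9 vehicle arrays are shared by the values that follow, which use the drug arrays of the choice and carry no test. Mas1 stood apart from vehicle mainly with clozapine, at 0.36 ± 0.11 (SE) for clozapine and 0.039 ± 0.11 for haloperidol, and 25 of 27 clozapine arrays lay above the vehicle mean of 9.95 ± 0.22 (SD, n = 9). Pias1 and Naa25 stood below vehicle mainly with haloperidol, at -0.28 ± 0.097 and -0.36 ± 0.16 for haloperidol beside 0.039 ± 0.097 and 0.092 ± 0.16 for clozapine. Pias1 was below the vehicle mean on 25 of 27 haloperidol arrays.

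Tsc22d2, Rbfox2, Rab14 and Zbtb41 stood above vehicle with haloperidol by more than they stood below it with clozapine. Tsc22d2 was at 0.45 ± 0.19 (SE) for haloperidol minus vehicle and -0.13 ± 0.19 for clozapine minus vehicle. Rbfox2 was at 0.34 ± 0.13 and -0.081 ± 0.13 in the same order. Rab14 was at 0.33 ± 0.20 and -0.21 ± 0.20, and Zbtb41 at 0.33 ± 0.17 and -0.18 ± 0.17. The remaining 3 lay on either side of vehicle: Emsy at 0.18 ± 0.078 with clozapine and -0.11 ± 0.078 with haloperidol, Nutf2 at 0.16 ± 0.13 and -0.19 ± 0.13, and Ggact at -0.22 ± 0.11 and 0.18 ± 0.11.

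These values moved with the technical terms. With the block as a term clozapine minus vehicle fell to a median of 0.165 times its size over the 10 members, Mas1 keeping 0.32 and Emsy 0.15 while Tsc22d2 stood at 0.027, Naa25 at -0.024 and Pias1 at -0.015, on the other side of 0. With the control ratio haloperidol minus vehicle fell to a median of 0.509 times, Tsc22d2 standing at 0.21, Rbfox2 at 0.22, Rab14 at 0.12, Zbtb41 at 0.099, Pias1 at -0.18 and Nutf2 at 0.0047. The converse combinations moved less. Haloperidol minus vehicle stood at a median of 0.801 times with the block, and clozapine minus vehicle at 1.09 times with the control ratio. Within the first block Rab14 stood above vehicle with both drugs, at 0.73 with clozapine and 0.91 with haloperidol, and within the second below it with both, at -0.58 and -0.065. Over all probe sets limma called 0 for clozapine minus vehicle (0%; 711 at an unadjusted p under 0.05) and 4 for haloperidol minus vehicle (0.0215%; 1261), and 0 members were among them.

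The mean of both drugs against vehicle weights the drugs equally, so that the difference between them which chose the members cancels, and it was tested. In that comparison 0 of the 10 members passed, where limma called 1 of 18625 probe sets (0.00537%). Mas1 came nearest, at 0.20 ± 0.11 (SE; 95% interval -0.012 to 0.41; limma adjusted p = 0.9996, on 40 of 54 drug arrays above the vehicle mean). The other 9 lay between -0.14 ± 0.15 for Naa25 and 0.16 ± 0.18 for Tsc22d2.

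The levels by dose show where the arrays lay. Ggact at high dose lay between 11.30 and 12.07 (median 11.63) on the 8 clozapine arrays and between 12.03 and 12.64 (median 12.25) on the 9 haloperidol arrays, so the groups overlapped by a narrow margin, while at low dose they lay between 11.32 and 12.57 (median 12.01) and between 11.81 and 12.64 (median 12.19). Emsy at high dose lay between 11.13 and 11.48 (median 11.29) with clozapine and between 10.61 and 11.20 (median 10.92) with haloperidol, beside 10.72 to 11.35 (median 11.18) on vehicle. Mas1 at high dose lay between 9.84 and 11.15 (median 10.28) with clozapine and between 9.35 and 10.52 (median 9.96) with haloperidol, with wide overlap. Tsc22d2 at high dose lay between 9.90 and 12.30 (median 10.52) with clozapine and between 10.89 and 12.59 (median 11.64) with haloperidol, and its highest clozapine array exceeded most haloperidol arrays.

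The drug difference was also read at each dose word. It was larger in size at the high than at the low dose for each of the 10 members. Over all probe sets the median absolute difference was also larger at high dose, 0.095 beside 0.055 at low, so this is not particular to the members. Tsc22d2 was at -0.22 ± 0.23 (SE) at low, -0.59 ± 0.23 at medium and -0.91 ± 0.24 at high dose. Zbtb41 was at -0.21 ± 0.20, -0.46 ± 0.21 and -0.87 ± 0.21, and Rab14 at -0.27 ± 0.23, -0.50 ± 0.24 and -0.86 ± 0.25. Ggact was at -0.21 ± 0.13, -0.42 ± 0.14 and -0.60 ± 0.14. These values rest on the brightest probe set of each gene. With the mean over all of a gene's probe sets, those too dim to be tested included, the high-dose difference was -0.015 for Rab14 and -0.24 for Ggact. The only other probe set of Ggact was too dim to be tested. On this side Rbfox2 had its largest value at medium dose, -0.52 ± 0.16 beside -0.26 ± 0.15 at low and -0.49 ± 0.16 at high dose.

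For the genes higher with clozapine the 3 values ran as follows. Naa25 stood at 0.30 ± 0.19 (SE), 0.44 ± 0.20 and 0.62 ± 0.20, and Nutf2 at 0.061 ± 0.15, 0.49 ± 0.16 and 0.51 ± 0.16. Mas1 stood at 0.20 ± 0.14, 0.33 ± 0.14 and 0.44 ± 0.14. With the mean over all probe sets Naa25 was at 0.17, Emsy at 0.14, Nutf2 at 0.24 and Pias1 at 0.26 at high dose. Pias1 and Emsy were alike at medium and high dose, Pias1 at 0.20 ± 0.12, 0.37 ± 0.12 and 0.38 ± 0.12 and Emsy at 0.18 ± 0.093, 0.34 ± 0.095 and 0.35 ± 0.098. At single dose levels limma called 0 probe sets at low dose (0%; 492 at an unadjusted p under 0.05), 0 at medium (0%; 1164) and 1 at high (0.00537%; 2230), none of them a member. The count at high dose hung on clozapine high 2: without that array 317 probe sets passed, 9 of the 10 members among them, all but Mas1. Leaving out any other single array gave 0 members. The array was singled out after its values were seen, and the comparison is part of the choice. The members' counts here therefore carry no test.

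Whether the difference depended on dose was tested with the interaction of drug and dose, high minus low. It was called for 0 of the 10 members and for 0 of 18625 probe sets (0%; 895 at an unadjusted p under 0.05). The largest was Tsc22d2 at -0.69 ± 0.33 (SE; 95% interval -1.35 to -0.039; limma adjusted p = 0.918), followed by Zbtb41 at -0.66 ± 0.29. The intervals of 6 members spanned 0, Naa25 and Mas1 among them. Within a drug, high minus low dose was called for 0 members and 0 probe sets with clozapine (0%; 602 at an unadjusted p under 0.05) and with haloperidol (0%; 1029). The largest values there were -0.44 ± 0.21 (SE) for Zbtb41 and -0.39 ± 0.24 for Rab14 with clozapine, and 0.37 ± 0.23 for Tsc22d2 and -0.34 ± 0.16 for Nutf2 with haloperidol. Mas1 stood 0.27 ± 0.14 higher at high than at low clozapine and 0.034 ± 0.14 higher with haloperidol.

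Measures of RNA quality and of the order of the samples moved with the members. The arrays carry control probe sets at the 3′ and 5′ ends of GAPDH and beta-actin, and the mean of their log2 ratios rises when RNA is shorter or less fully copied. This ratio was 0.510 ± 0.055 (SD, n = 27) with clozapine, 0.568 ± 0.072 (SD, n = 27) with haloperidol and 0.505 ± 0.061 (SD, n = 9) with vehicle. Between the drugs it differed by -0.058 (two-sided permutation test, p = 0.0015, adjusted p = 0.00750 over 5 measures). The difference was carried by beta-actin (adjusted p = 0.0306) more than by GAPDH (0.347), and the hexokinase control (0.973) and the sample number in the titles (0.633) did not pass. The ratio was highest at high haloperidol, 0.60 ± 0.055 (SD, n = 9), and lowest among the drug groups at high clozapine, 0.495 ± 0.061 (SD, n = 8), which is the dose where most members differed most.

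After group means were removed, 8 of the 10 members followed the control ratio over the 63 neuroleptic arrays (permutation tests, adjusted over 60 relations). The smallest r among these 8 was 0.35 in size, which 21.2% of all probe sets tested reached, and 38.6% of the other 215 called between the drugs. All 5 genes higher with clozapine had a negative correlation with it and all 5 genes higher with haloperidol a positive one. That sign was also seen for 211 of the other 215 called probe sets and for 74.3% of all tested, so it is not particular to the 10 genes. Nutf2 had a Pearson r of -0.57 (Spearman rho -0.58; permutation p = 1e-05 for each, the smallest these permutations can give; adjusted p = 0.000600), and -0.52 without the 2 arrays farthest from the median ratio. Zbtb41 had r = 0.52 (rho 0.54; adjusted p = 0.000600), Tsc22d2 r = 0.48 (rho 0.46; adjusted p = 0.000600) and Ggact r = 0.47 (rho 0.48; adjusted p = 0.000686), with permutation tests throughout. Mas1 (r = -0.15, permutation adjusted p = 0.292) and Emsy (r = -0.24, permutation adjusted p = 0.113) did not pass. Within the 4 blocks of consecutive sample numbers Nutf2 stood at -0.55, -0.82, -0.48 and -0.038, so its relation was near 0 in the last block. Over the same blocks Zbtb41 stood at 0.71, 0.22, 0.43 and 0.39, Tsc22d2 at 0.68, 0.55, -0.20 and 0.22, and Ggact at 0.64, -0.018, 0.30 and 0.38, so these relations were strongest in the first block.

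Blocks of sample numbers held the drugs unevenly. They held 6, 6, 11 and 4 clozapine arrays, 8, 10, 0 and 9 haloperidol arrays and 2, 2, 2 and 3 vehicle arrays. The range of a member's 4 block means ran from 0.29 for Emsy, close to its drug difference, to 0.99 for Tsc22d2, and exceeded the drug difference for the other 9. All 5 genes higher with haloperidol were lowest in the block without haloperidol, Tsc22d2 at 10.60 there and at 11.60 in the last block. With the block as a term in the fit, differences fell to a median of 0.644 times the size without it, and limma called 0 probe sets and 0 members. With the control ratio as a covariate they fell to a median of 0.675 times, again with 0 probe sets and 0 members called. No member changed sign under either.

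The members did not respond alike to these terms. Mas1 kept 0.29 with the block and 0.28 with the control ratio, against 0.32 without either, and Emsy kept 0.23 and 0.25 against 0.29. Nutf2 fell to 0.15 and 0.17 from 0.35, the strongest loss. Tsc22d2 went from -0.57 to -0.36 and -0.35, Zbtb41 from -0.51 to -0.31 and -0.29, and Rab14 from -0.55 to -0.44 and -0.35. Rbfox2 stood at -0.31 under both terms, Ggact at -0.25 and -0.28, Naa25 at 0.27 and 0.30 and Pias1 at 0.21 and 0.22. With a spline of sample number, a smooth curve in place of the block, the 10 differences fell to a median of 0.686 times. Mas1 then stood at 0.21 and Emsy at 0.24, beside 0.23 for Nutf2 and -0.33 for Tsc22d2.

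Drug differences within the 3 blocks that held both drugs, pooled over dose levels, show which members kept a direction. Mas1 stood at 0.42, 0.31 and 0.14 in the first, second and last block, Emsy at 0.28, 0.13 and 0.34 and Ggact at -0.30, -0.20 and -0.24. Nutf2 (0.074, 0.14 and 0.24), Pias1 (0.032, 0.19 and 0.44), Rab14 (-0.18, -0.51 and -0.64) and Rbfox2 (-0.016, -0.59 and -0.31) also kept their sign, with values near 0 in the first block for 3 of them. Naa25 (-0.085, 0.27 and 0.93), Tsc22d2 (0.20, -0.57 and -0.79) and Zbtb41 (0.050, -0.43 and -0.65) had the opposite sign in the first block. The blocks held the doses unevenly, and the last held no medium clozapine array. At single doses Mas1, Emsy and Pias1 kept their sign in every block. At low dose Nutf2 was -0.21, -0.18 and -0.022, and Ggact 0.011, 0.11 and -0.10. Rab14 (0.082) and Rbfox2 (0.16) reversed at low dose in the last block, and Rab14 (0.16) at high dose in the first. The part of RNA quality and of the block in the drug difference was not tested beyond these values.

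**Figure D2:**
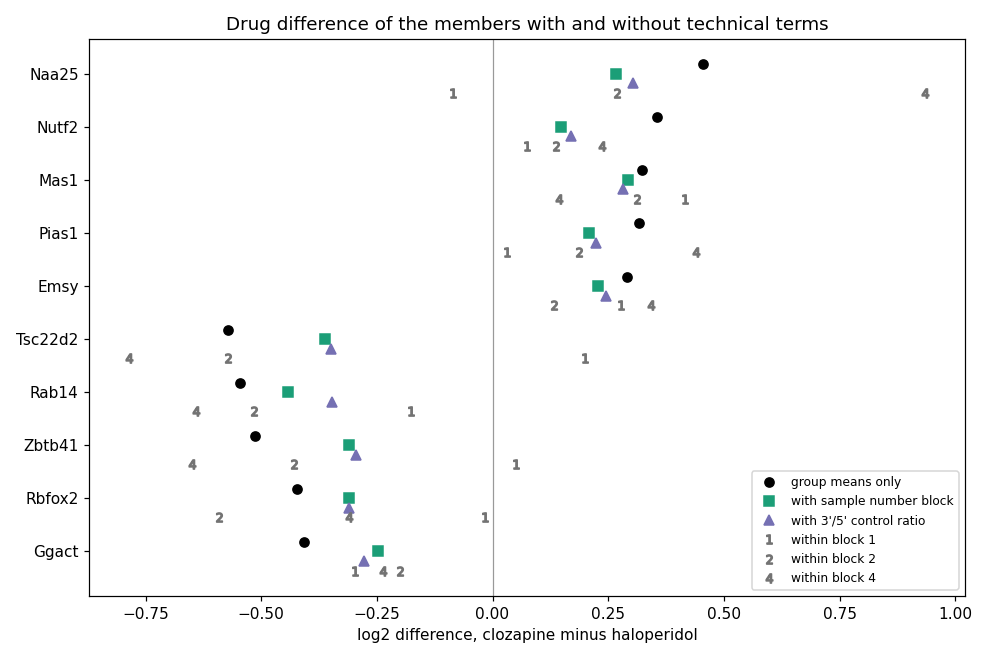
Clozapine minus haloperidol in log2 units for each gene from group means alone (circles), with the block of sample numbers (squares) or the control ratio (triangles) in the fit, and within single blocks (numerals). Squares and triangles lie nearer 0 than circles for all 10 genes, and Naa25, Tsc22d2 and Zbtb41 cross 0 in block 1.

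Sample number itself correlated with 5 members over the neuroleptic arrays, the smallest r among them being 0.35 in size, which 24.2% of all probe sets tested reached. Mas1 was lower at higher numbers (Pearson r = -0.55, rho -0.60; permutation adjusted p = 0.000600), while Zbtb41 (r = 0.41, rho 0.41; permutation adjusted p = 0.00486), Rab14 (0.40 and 0.42; 0.00640), Rbfox2 (0.37 and 0.39; 0.0108) and Tsc22d2 (0.35 and 0.40; 0.0141) were higher. Without the 2 arrays farthest from the median number the 5 values of r were -0.52, 0.37, 0.36, 0.33 and 0.29. Within the 4 blocks Mas1 stood at -0.34, 0.017, -0.24 and -0.68. Rab14 was negative in each block, at -0.054, -0.67, -0.62 and -0.15. Tsc22d2 stood at 0.12, -0.53, -0.48 and -0.051, Rbfox2 at 0.028, -0.41, -0.55 and 0.078, and Zbtb41 at -0.26, 0.012, 0.0076 and 0.25. The positive r of these genes over all neuroleptic arrays was thus not held within blocks. Nutf2 had r = -0.066 with sample number (permutation adjusted p = 0.648). For the 5 members that correlated with sample number over all neuroleptic arrays, the signs over all TTX arrays ran the other way. In the lesion arrays they did so for all of these members but Mas1 (r = -0.38). In the TTX arrays 5 members passed by Pearson r, Zbtb41 at r = -0.83 (rho -0.85), Ggact at -0.79 (rho -0.73), Nutf2 at 0.66 (rho 0.54), Tsc22d2 at -0.59 (rho -0.53) and Mas1 at 0.52 (rho 0.43), with permutation adjusted p between 0.000600 and 0.0458. By rho Tsc22d2 (permutation adjusted p = 0.0512) and Mas1 (0.121) did not pass. In the same order r was -0.45, -0.64, 0.47, -0.46 and 0.88 in the first block. The second block gave -0.86, 0.0012, -0.26, -0.27 and -0.45. In the lesion arrays 3 passed, Tsc22d2 at -0.67 (rho -0.63), Pias1 at 0.66 (rho 0.67) and Rbfox2 at -0.55 (rho -0.53), with permutation adjusted p between 0.00142 and 0.0221. Of all probe sets tested, 27.1% in the TTX and 5.18% in the lesion arrays reached the smallest of these.

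The lesion and TTX arrays took no part in the choice of the members and were tested. After the lesion of the ventral hippocampus 0 of 10 members passed, and limma called 0 of 18625 probe sets (0%; 1450 at an unadjusted p under 0.05). Rab14 lay between 13.99 and 15.32 (median 14.76) on the 12 lesion arrays and between 13.89 and 14.49 (median 14.32) on the 10 sham arrays. Its difference of 0.44 ± 0.14 (SE; 95% interval 0.15 to 0.72) was seen on 10 of 12 lesion arrays, with an unadjusted limma p of 0.00479 and an adjusted p of 0.514. It was the only member with an unadjusted p under 0.05 there. It stood at 0.40 and 0.47 in the 2 blocks of the lesion arrays. These values are those of the brightest Rab14 probe set. The mean over all its probe sets, those too dim to be tested included, was -0.10 for lesion minus sham. The other tested probe sets of Rab14 are given below. Mas1 was at -0.21 ± 0.15 (95% interval -0.51 to 0.095), Tsc22d2 at 0.21 ± 0.15 (-0.11 to 0.52) and Pias1 at -0.17 ± 0.087 (-0.35 to 0.012). Emsy (-0.0039 ± 0.10) and Rbfox2 (0.011 ± 0.11) lay at 0 within errors that leave room for about 0.2 in either direction, from -0.21 to 0.20 for Emsy and from -0.21 to 0.23 for Rbfox2.

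After TTX in the ventral hippocampus 0 of 10 members passed, and limma called 0 of 18625 probe sets (0%; 867 at an unadjusted p under 0.05). Tsc22d2 came nearest at -0.24 ± 0.12 (SE; 95% interval -0.50 to 0.015), lower than the sham mean on 8 of 11 TTX arrays, with a limma adjusted p of 0.999. Ggact stood at -0.20 ± 0.16, Mas1 at 0.18 ± 0.20 and Zbtb41 at -0.16 ± 0.17. Rab14 stood at 0.13 ± 0.15, and its difference from the lesion value was not tested.

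**Figure D3:**
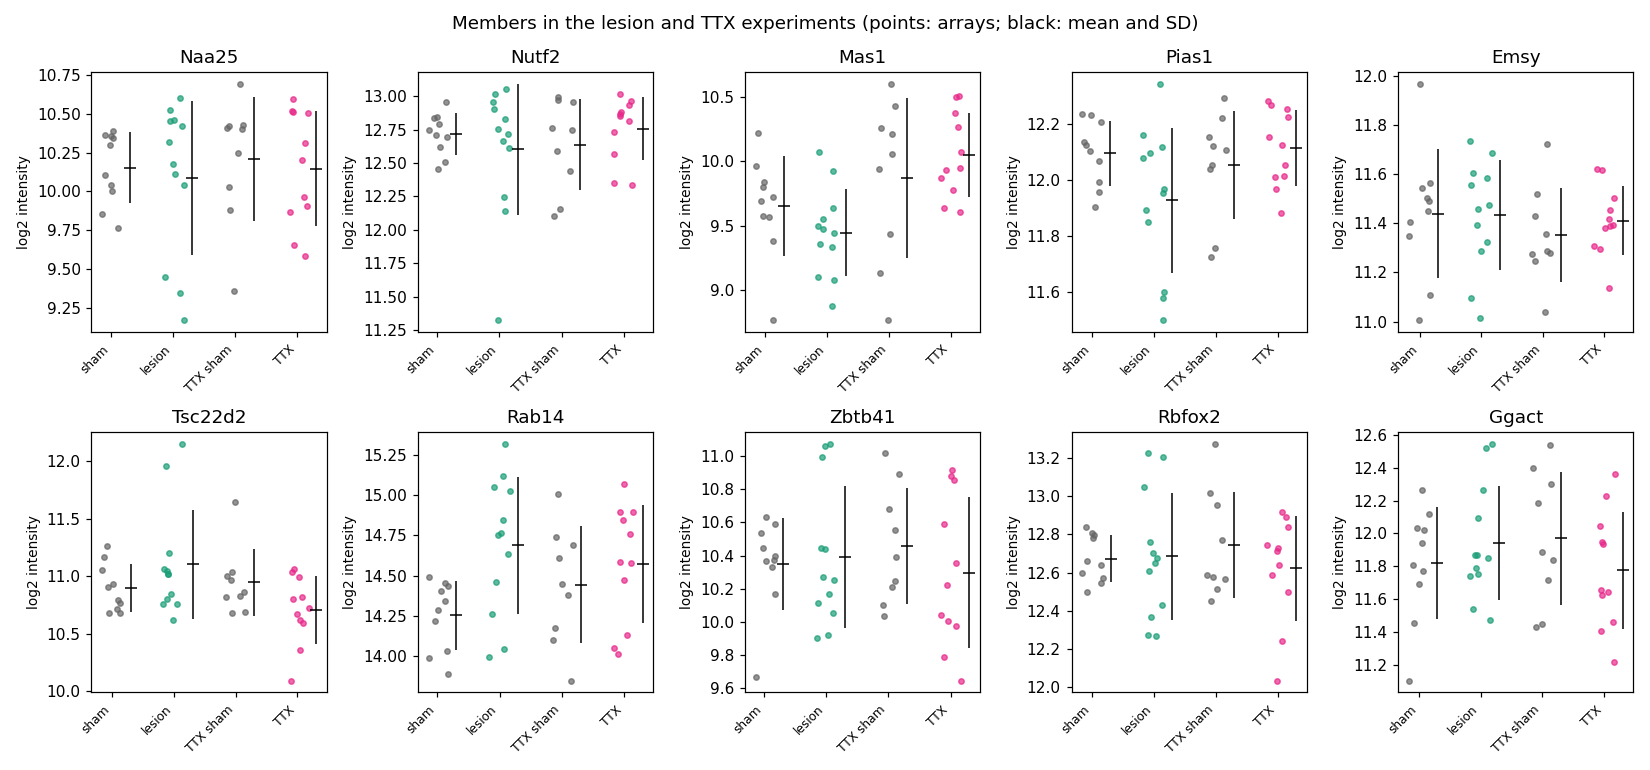
Log2 intensity of the 10 genes in the lesion and TTX experiments; points are arrays and black marks are means with SD. Each gene is given by its brightest probe set. Groups overlap for every gene, and the largest shift is that of the brightest Rab14 probe set, at 14.69 ± 0.43 (SD, n = 12) on lesion arrays and 14.25 ± 0.21 (SD, n = 10) on sham arrays.

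No member passed in those experiments, but the members varied together in them along the same division that separated the drugs. Correlations between members were computed from values with group means removed, for all 45 pairs in each experiment, with permutation tests adjusted over 135 relations. In the 22 lesion arrays 18 of the 20 pairs on the same side of the drug difference were positive, with a median Pearson r of 0.47 (10 passed), and 24 of the 25 pairs on opposite sides were negative, with a median of -0.48 (13 passed). In the 20 TTX arrays 19 of 20 same-side pairs were positive (median 0.58, 12 passed) and 25 of 25 opposite pairs negative (median -0.48, 12 passed). In the 63 neuroleptic arrays the counts were 19 of 20 (median 0.57, 16 passed) and 25 of 25 (median -0.49, 17 passed). The 5 exceptions in sign all involved Mas1, with Emsy in the neuroleptic arrays, with Pias1, Emsy and Tsc22d2 in the lesion arrays and with Pias1 in the TTX arrays.

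The same division ran through other probe sets. Over pairs of all probe sets tested, divided by the sign of their own drug difference, 53.2% of same-side pairs were positive and 53.4% of opposite pairs negative in the lesion arrays, 56.9% and 56.9% in the TTX arrays and 57.8% and 58.1% in the neuroleptic arrays. Among the other probe sets called between the drugs the shares were 86.9% and 73.3% in the lesion, 89.4% and 84.0% in the TTX and 96.4% and 89.0% in the neuroleptic arrays. An r as large as the smallest that passed among the members was reached in the lesion arrays by 5.14% of same-side and 4.81% of opposite pairs of all probe sets, and by 35.8% and 18.5% of pairs of the other called ones. In the TTX arrays these shares were 7.52% and 7.48%, and 36.8% and 23.6%. In the neuroleptic arrays they were 19.3% and 19.3%, and 76.8% and 52.3%. The members' relations to sample number in the lesion and TTX arrays, given above, ran along this division for 9 of 10 members in each, and their part in the pairs was not tested beyond the values with block means removed.

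Single pairs show the size of this. Naa25 and Pias1, a subunit of an acetyltransferase and a SUMO ligase, had r = 0.79 in the lesion arrays (rho 0.72; permutation adjusted p = 0.000169; 0.63 without the 2 farthest arrays) and 0.68 in the TTX arrays (rho 0.59; permutation adjusted p = 0.00309; 0.52). Tsc22d2 and Rab14 had r = 0.70 and 0.62 in the same order (rho 0.64 and 0.62; permutation adjusted p = 0.00123 and 0.00667), and 0.57 and 0.62 without the 2 farthest arrays. Naa25 and Tsc22d2, on opposite sides, had r = -0.62 in the lesion arrays (rho -0.46; permutation adjusted p = 0.00820), which rested on the 2 farthest arrays (-0.14 without them), and -0.80 in the TTX arrays (rho -0.69; permutation adjusted p = 0.000117; -0.66 without them). Tsc22d2 and Rbfox2 reached 0.86 in the neuroleptic arrays (rho 0.86; permutation adjusted p = 6.43e-05; 0.84 without the 2 farthest arrays).

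The pattern was weaker with technical measures removed and differed between blocks. With group and block means and the control ratio removed, same-side pairs were positive in 20 of 20, 18 of 20 and 19 of 20 cases in the neuroleptic, lesion and TTX arrays, with medians of 0.35, 0.42 and 0.45. Opposite pairs were then negative in 21, 25 and 23 of 25 cases, with medians of -0.33, -0.35 and -0.38. In the second block of the lesion arrays, however, 12 of 20 same-side pairs were positive (median 0.12) and 16 of 25 opposite pairs negative, against 20 of 20 (median 0.70) and 25 of 25 in the first. In the TTX arrays the second block gave 15 of 20 (median 0.21) and 14 of 25, and the first 19 of 20 (median 0.51) and 25 of 25. Pairs share members and arrays, so the counts are not of independent relations.

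**Figure D4:**
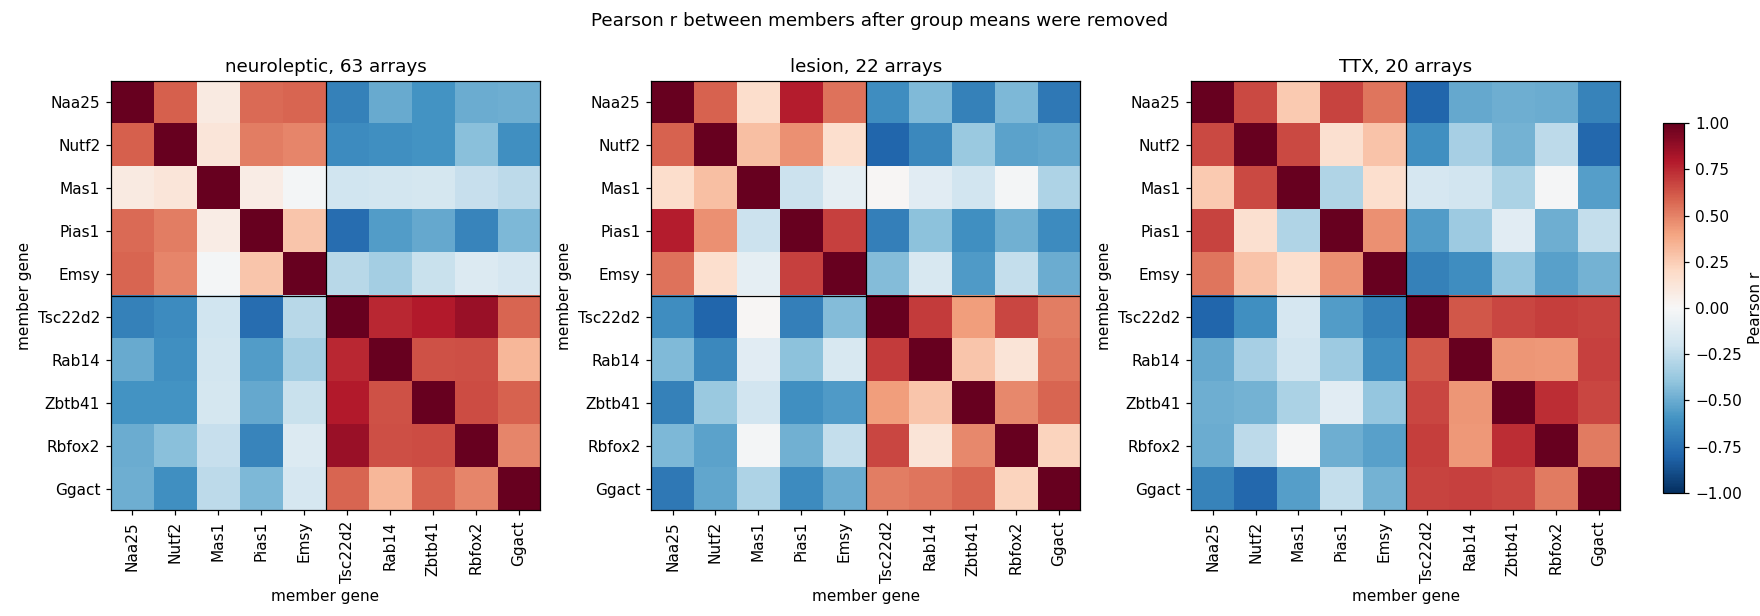
Pearson r between the 10 genes with group means removed, in the neuroleptic, lesion and TTX arrays; black lines divide genes higher with clozapine (first 5) from genes higher with haloperidol. Red within and blue between the divisions recur in the 3 experiments, and Mas1 is pale in most of its row.

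Most members were among the more variable genes, and Emsy was not. The residual standard deviation within groups, with a median of 0.218 over all probe sets tested, was 0.504 for Tsc22d2, 0.522 for Rab14 and 0.451 for Zbtb41, at the 96.9th, 97.3rd and 95.1st percentiles. Emsy, at 0.203, stood at the 43.7th. Among 10127 genes the one most like each member over the 63 neuroleptic arrays, after group means were removed, was Elavl2 for Zbtb41 (r = 0.92), Dnajb6 for Tsc22d2 (0.91), Dync1li1 for Rbfox2 (0.89), Tmem147 for Nutf2 (0.82), Cacna2d1 for Pias1 (0.75), Tsc22d2 for Rab14 (0.75), Dhx36 for Ggact (0.72), Srp72 for Naa25 (0.71), Chmp5 for Emsy (0.66) and Opn3 for Mas1 (0.65). Those are the highest of many values and share arrays and sample order with the members.

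Probe sets of the same gene did not always go together. Rab14 had 5 probe sets, of which 4 were tested, here called the first to the fourth by their mean level. Clozapine minus haloperidol was -0.55 ± 0.14 (SE) at the first and -0.23 ± 0.069 at the second, but 0.30 ± 0.086 at the third and 0.47 ± 0.15 at the fourth. Thus 2 Rab14 probe sets were higher and 2 lower with clozapine, and only the brightest passed the threshold over all probe sets. After the lesion the first probe set stood at 0.44 ± 0.14, the second at 0.026 ± 0.10, the third at -0.28 ± 0.12 and the fourth at -0.44 ± 0.15. The sources used here do not say which exons or transcript ends each probe set reads.

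The opposition held array by array. With group means removed, the first and the fourth Rab14 probe sets had r = -0.87 in the neuroleptic arrays (permutation adjusted p = 6.00e-05 over 30 relations), -0.80 in the lesion arrays (0.000171) and -0.69 in the TTX arrays (0.00257), with rho at -0.86, -0.82 and -0.54, and between -0.48 and -0.95 within every block. By comparison the third and the fourth had r = 0.92, 0.90 and 0.86. The log2 gap between the first and the fourth, chosen after its values were seen, was 1.64 ± 0.94 (SD, n = 27) with clozapine, 2.63 ± 1.12 (SD, n = 27) with haloperidol and 1.99 ± 1.26 (SD, n = 9) with vehicle. Lesion arrays stood at 2.35 ± 0.85 (SD, n = 12) and their sham arrays at 1.47 ± 0.39 (SD, n = 10), a difference of 0.88 on 10 of 12 arrays, which carries no test because the pair was picked with these values in view. The difference was 0.79 and 0.96 in the 2 blocks and 0.95 with the control ratio as a term. After TTX it was 0.42 on 8 of 11 arrays, at 0.996 and -0.11 in the 2 blocks. In the neuroleptic arrays the first followed the control ratio at r = 0.41 and the fourth at -0.35, and the part of RNA quality in their opposition was not tested beyond these values.

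**Figure D5:**
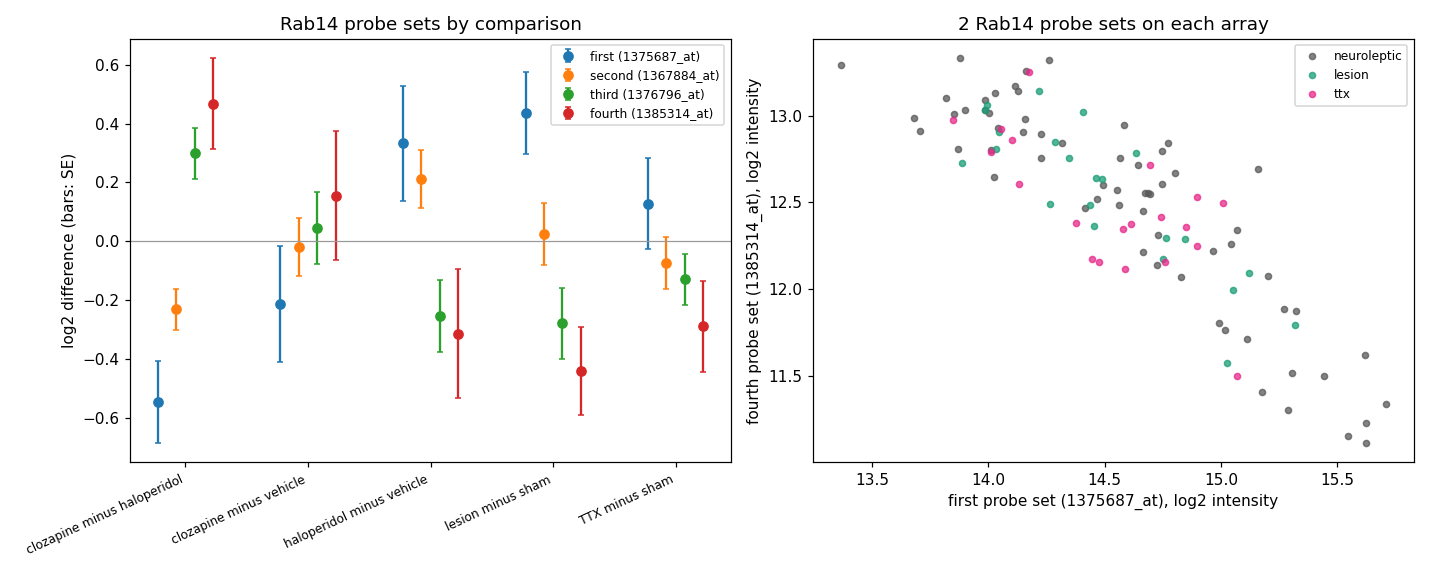
Left, log2 differences of 4 Rab14 probe sets in 5 comparisons with SE bars; right, the first against the fourth on each array. The probe sets take opposite sides of 0 between the drugs and after the lesion, and the arrays fall along a descending band in the 3 experiments.

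Other members' second probe sets mostly lay nearer 0. With the mean over all of a gene's probe sets the drug difference over all doses was 0.21 for Naa25, 0.18 for Nutf2 and for Pias1, 0.092 for Emsy, -0.063 for Rab14, -0.39 for Rbfox2 and -0.21 for Ggact. These means include the probe sets too dim to be tested. The dimmer probe set of Nutf2 was at 0.0067 ± 0.032 (SE) for clozapine minus haloperidol, against 0.35 at its brightest. That of Pias1 was at 0.047 ± 0.086 and that of Naa25 at 0.093 ± 0.087. Emsy had 1 further probe set at 0.13 ± 0.054 and its dimmest at -0.15 ± 0.090, the latter with the opposite sign. Another probe set each of Naa25, Rab14, Rbfox2 and Ggact was too dim to be tested in the neuroleptic arrays, and Mas1, Tsc22d2 and Zbtb41 have a single probe set.

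The genes around each member were read from lists chosen with earlier results known, and these lists hold other genes than the members. Of 151 genes tested on the 10 lists, 3 passed between the drugs, which is 1.99% beside 1.21% of all probe sets. The latter share counts every probe set, while the lists count 1 per named gene. Counted per named gene, 31 were called higher and 47 lower with clozapine, members included, of about 10127 tested. Of the N-terminal acetyltransferase genes 0 of 8 tested passed between the drugs, and Naa20, the catalytic partner of Naa25, was at 0.050 ± 0.046 (SE). Of the nuclear transport genes 1 of 28 passed, the importin Kpna1, lower with clozapine at -0.20 ± 0.051 (limma adjusted p = 0.0420). Of the renin-angiotensin genes 0 of 5 tested passed, with Agt, the angiotensin precursor, at 0.12 ± 0.073 and Ace, the converting enzyme, at 0.15 ± 0.084. Of the SUMO genes 1 of 13 passed, the modifier Sumo3, higher with clozapine at 0.13 ± 0.032 (limma adjusted p = 0.0324).

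In the Emsy and Kdm5a complex 0 of 6 tested genes passed, the demethylase Kdm5a being at -0.014 ± 0.049 (SE). In the TSC22 family 0 of 5 passed, with Tsc22d1 at 0.061 ± 0.041 and Tsc22d3, a glucocorticoid-induced gene, at -0.12 ± 0.059. Of the Rab GTPases 0 of 33 passed, Rab5a of early endosomes being at -0.11 ± 0.074. Of the BTB zinc finger factors 0 of 24 passed, and of the neuronal splicing factors 1 of 19, the RNA-binding protein Elavl2, lower with clozapine at -0.27 ± 0.065 (limma adjusted p = 0.0284). Rbfox1, the paralogue of Rbfox2, was at -0.16 ± 0.048 (limma adjusted p = 0.0800) and Rbfox3 at 0.0082 ± 0.10. Of the glutathione and gamma-glutamyl genes 0 of 10 passed. The lists' median differences ran from -0.038 for splicing factors to 0.12 for renin-angiotensin genes, beside 0.018 over all genes. In the tests of both drugs against vehicle, of lesion and of TTX, 0 genes of these lists passed.

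Neuronal markers bore out the tissue label, Snap25 at a mean of 16.74 and Slc17a7 at 14.77 log2 units. None of 9 neuronal, 7 astrocyte, 6 oligodendrocyte, 7 microglial, 8 endothelial, 6 meningeal and choroid plexus, 2 blood and 6 striatal markers tested passed between the drugs. Neuronal markers had a median of -0.0028. Blood and endothelial markers stood higher with clozapine, in the direction of Naa25, Nutf2, Mas1, Pias1 and Emsy. Both blood markers were higher, Alas2 at 0.44 ± 0.17 (SE) and Hbb at 0.21 ± 0.14, and 7 of 8 endothelial markers were, with a median of 0.099 and Vwf at 0.30 ± 0.12. The summed level of the 3 measured blood genes lay between 15.24 and 16.57 at high clozapine, 14.86 and 16.03 at high haloperidol and 15.04 and 15.59 in vehicle, and that of endothelial genes between 14.83 and 15.08, 14.63 and 15.00, and 14.59 and 15.04. At low dose the groups lay closer. The blood genes had medians of 15.296 with clozapine, 15.274 with haloperidol and 15.265 in vehicle, and the endothelial genes 14.91, 14.826 and 14.89. The part of blood and endothelial markers in the members' differences was not tested.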

How the data were processed

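Total RNA from rat frontal cortex was hybridised to 105 Affymetrix arrays, 1 per sample. The authors deposited 1 linear intensity per probe set and array; the sources used here do not name the software that made it. The deposited intensity had the same 2% trimmed mean on every array (2500.6 to 2500.8), which shows scaling per array. All 31099 probe sets were quantile-normalised per experiment, floored at 32 and taken as log2. The 57 control probe sets were then set aside, and 6.04% of the deposited values of the rest lay below 32. The 60% of probe sets with the highest mean were kept (18625 of 31042). Groups were compared with limma 3.58.1 in R 4.3.3 (lmFit and eBayes, no covariate, all 7 neuroleptic groups in 1 fit, lesion and TTX fitted alone), with Benjamini-Hochberg adjustment over all probe sets tested and a threshold of 0.05. The procedure was tested on simulated data.

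Symbols came from the platform's annotation: 20826 probe sets have 1 symbol, 436 several and 9780 none. The probe set with the highest mean over all arrays stands for its gene. The genes named are the 10 members, the gene most like each, and from each list those past the threshold plus a few as values; arrays and probe sets singled out otherwise were chosen after their values were seen. The members and lists were chosen with earlier results of these data known. Correlations used values with group means removed and up to 100000 permutations (Python 3.11.15, numpy 2.4.6, pandas 2.3.3). Blocks are runs of consecutive sample numbers in the titles, not a stated batch. The number of arrays limits the precision (median SE 0.059 for clozapine minus haloperidol). Alternatives covered the normalisation, floor, filter, variance model, array weights, sample number, control ratio, low-correlation arrays and leaving out each array. On log2 of the deposited values without a floor, the highest correlation between 2 arrays was 0.955, so no 2 arrays held identical values.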

Additional observations from a re-analysis of the deposited data

Results flagged for a closer look

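Dixon's test for a single array far from its group was run on 90 groups of 4 to 10 arrays for the 10 members and marked 11, where chance marks about 5% of groups. Several concern the same arrays. On clozapine high 2, Naa25 was 8.95 (nearest array 10.30), Pias1 11.17 (11.97) and Tsc22d2 12.30 (10.67), each on the haloperidol side of its group. On clozapine medium 1, Naa25 was 9.20 (10.06), Tsc22d2 11.74 (10.80), Zbtb41 10.98 (10.47) and Rbfox2 12.92 (12.54), again on the haloperidol side. Naa25 was 8.98 on haloperidol low 9 (9.71), and Pias1 was 11.24 on haloperidol high 7 (11.75). Outside the drug groups, Tsc22d2 was 11.65 on TTX sham 3 (11.04) and Zbtb41 was 9.66 on lesion sham 2 (10.17).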

How the results depend on the processing

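Between the drugs, 225 probe sets passed; the count was 49 with no filter, 531 with array weights, 118 with a spline of sample number, 67 without the low-correlation arrays, and 0 with the block or the control ratio as a term, and leaving out 1 array gave 56 to 663. At high dose (1 probe set) it was 7 with the stricter filter, 2 with the spline, and 0 with no filter, the block, the sample number or the control ratio, and 0 to 317 with 1 array left out, the highest without clozapine high 2. Clozapine against vehicle gave 1 in place of 0 on the values as deposited, with the stricter filter, trend and robust eBayes, the spline and without the low-correlation arrays, and 0 to 1 with 1 array left out. Haloperidol against vehicle (4) gave 1 with no filter, the spline or the control ratio, and 1 to 5 with 1 array left out. Clozapine high minus low (0) gave 4 with the stricter filter, 7 with the block and 0 to 7 with 1 array left out, haloperidol high minus low (0) 0 to 2, and the interaction (0) 1 with array weights, the block, the sample number or the spline and 0 to 1 with 1 array left out. The lesion (0) gave 1 with no filter. The causes were not tested. Over all dose levels, reversed values between the drugs were Naa25 -0.085, Tsc22d2 0.20 and Zbtb41 0.050 within the first block, Emsy -0.15 at its dimmest probe set, and Rab14 0.30 and 0.47 at its 2 dimmest tested probe sets. Of the 10 members, 4 passed with no filter, 1 with the spline and 8 of 8 kept by the stricter filter. Leaving out 1 array, Nutf2 passed in 42 of 63 fits, Rab14 in 47, Naa25 and Mas1 in 56 and the other 6 in 63. These counts of members come from the comparison that chose them, in fits that share most arrays, and carry no test. The Rab14 gap after the lesion, examined under settings chosen after seeing the data, was 0.77 to 1.0 with 1 array left out and 0.82 without lesion 7 and lesion sham 9. No paired analysis was possible because the labels give the samples no replicate numbers shared between groups.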
